A study of Mus musculus with 18 samples.

Results

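Mouse sensory neurons of the dorsal root ganglia (DRG) that carry 1 tm1a allele of Dynlrb1 were compared between 24 and 48 h in culture. They were chosen by genotype and time point: the 3 cultures labelled heterozygous (HET, Dynlrb1(tm1a/+)) at 24 h, replicates 1, 2 and 5, and the 3 labelled HET at 48 h, replicates 1, 2 and 3. These are 6 of the 18 cultures of the series. The other cultures were HET at 12 h and wild type (WT) at 12, 24 and 48 h, 3 per group. A tm1a allele is a knockout-first insertion carried by every cell of the animal, neurons and glia alike, so both time points share it. Genotype and hours in culture were the only variables recorded in the labels used here. The design text speaks of biological repeats without naming separate animals, so the p-values measure the spread between these cultures.

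DRG neurons carry touch, pain, itch and limb position to the spinal cord. Taking them into culture severs their axons, and the cut neurons then switch on a set of injury and regrowth genes led by transcription factors such as Atf3 and Jun. Dynlrb1 encodes a roadblock light chain of cytoplasmic dynein. This motor hauls cargo along axons back to the cell body, signals of injury included. Such cultures also hold Schwann cells, satellite glia, fibroblasts, vessel cells and some blood cells, several of which can divide, whereas the neurons do not.

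RNA was sequenced from whole cultures, and the authors' normalized counts of 17198 genes are used. The depth of the libraries is unknown, because the deposited values had already been adjusted to nearly equal totals. Below, the values of single cultures follow the order of replicates 1, 2 and 5 at 24 h and 1, 2 and 3 at 48 h. Dynlrb1 (ENSMUSG00000047459) was at 2716, 3811 and 3085 normalized counts at 24 h and at 3314, 3482 and 3243 at 48 h. The 2 HET groups overlapped (log2 change 0.08, SE 0.12, limma adjusted p 0.791), and every HET culture lay below the WT cultures, which had 5702, 5229 and 6427 at 24 h and 5995, 5678 and 6372 at 48 h. The abundant neuronal markers Tubb3 and Uchl1 were well above the markers of other cells named here. Other members of the neuron list are not set beside them. Per transcript length, Tubb3, the neuronal tubulin, had a mean of 1110.4 FPKM and Uchl1 1580.2 FPKM in the HET 24 h cultures. At the same time the Schwann cell gene Sox10 had 14.7 FPKM, the fibroblast gene Dcn 27.2 FPKM and the endothelial gene Pecam1 20.2 FPKM, although Apoe of glia and macrophages reached 177 FPKM.

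One culture stood apart. Each culture was placed on a line drawn through all genes from the mean of the WT 24 h cultures, set to 0, to the mean of the WT 48 h cultures, set to 1, a line in which no HET culture had a part. The WT 48 h cultures lay at 1.13, 1.10 and 0.764, with replicate 3 the lowest of that group as well. The HET 24 h cultures lay at 0.254, 0.0286 and 0.115. HET 48 h replicates 1 and 2 lay at 0.875 and 0.593, between the WT times, but replicate 3 lay at -0.0333, below all 3 HET 24 h cultures and above the HET 12 h cultures at -0.181, -0.273 and -0.196. The mean shift of 0.346 did not pass an exact two-sided permutation test (p = 0.4, where 3 cultures against 3 can reach 0.1). It was 0.602 without HET 48 h replicate 3 (exact permutation p = 0.1, the smallest that 2 cultures against 3 allow) and 0.148 without HET 48 h replicate 1 (exact permutation p = 0.7). Across genes, HET 48 h replicate 3 correlated with the other HET 48 h cultures at a mean r of 0.981 and with the HET 24 h cultures at 0.987. Its mean r was highest with the WT 24 h cultures (0.9897). It was 0.986 with HET 12 h, 0.983 with WT 12 h and 0.969 with WT 48 h. HET 48 h replicates 1 and 2 correlated with each other at 0.990. These differences are small: replicate 3 was at 0.978 with replicate 1 and 0.984 with replicate 2, and the HET 24 h cultures were at 0.983 to 0.991 with each other. Of the 2999 genes that rose in WT from 24 to 48 h, 90.5% and 91.6% were above the HET 24 h mean in replicates 1 and 2, against 31.8% in replicate 3. Counts of calls are therefore given with all 3 HET 48 h cultures and without replicate 3, which was singled out by its values, so the second fit describes the other cultures and is no independent support. Statistics of single genes are from the fit with all cultures unless stated.

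**Figure D1:**
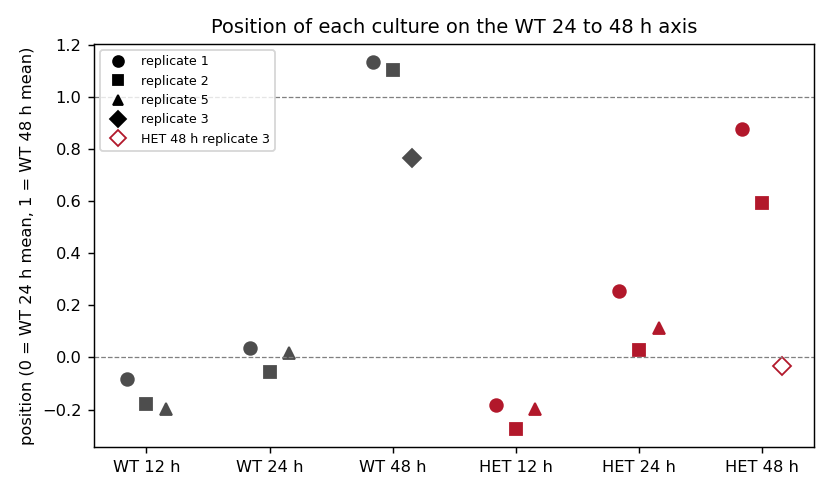
Position of each of the 18 cultures (horizontal axis: group; marker: replicate number) on the WT 24 to 48 h line, where 0 is the WT 24 h mean and 1 the WT 48 h mean (no unit). HET 48 h replicates 1 and 2 lie at 0.875 and 0.593, and replicate 3, the open marker, at -0.0333.

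With all 3 cultures at 48 h, 429 of 17198 genes differed from 24 h (2.49%; limma, Benjamini-Hochberg adjusted p under 0.05), 244 higher (1.42%) and 185 lower (1.08%). The median absolute log2 change of the called genes was 0.83, and in 417 of them the groups did not overlap, as in 10.2% (higher) and 8.08% (lower) of all genes. Without replicate 3, 2560 genes were called (14.9%), 1427 higher (8.3%) and 1133 lower (6.59%), and 428 of the 429 were among them with the same sign. These shares over all genes are the background for the counts of each gene list below. In WT from 24 to 48 h, 4772 genes were called (27.7%), 2999 higher (17.4%) and 1773 lower (10.3%), and 6961 had an unadjusted p under 0.05 (40.5%). In HET 3280 had one with all cultures (19.1%) and 4937 without replicate 3 (28.7%). The WT calls included 227 of the 429 HET genes and 1698 of the 2560, all with the same direction in both genotypes. The HET calls rested on single cultures: 0 genes passed without HET 24 h replicate 1, HET 48 h replicate 1 or HET 48 h replicate 2 (2745, 1759 and 2415 at an unadjusted p under 0.05), 148 without HET 24 h replicate 2 and 23 without HET 24 h replicate 5. The 2560 became 570 without HET 48 h replicate 1 and 1603 without replicate 2. On the authors' plain adjusted columns, 45.1% of the HET calls were higher in place of 56.9%, 43.2% in place of 55.7% without replicate 3, and 51.8% in place of 62.8% in WT.

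**Figure D2:**
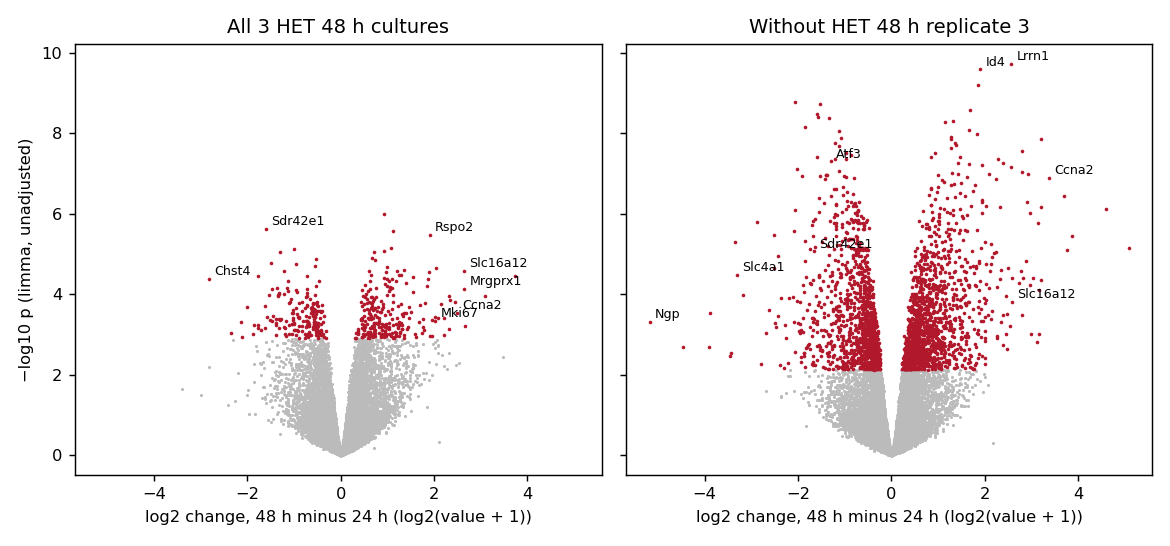
Log2 change from 24 to 48 h in HET (horizontal, log2(value + 1)) against the unadjusted limma p (vertical, −log10) for 17198 genes, with all 3 HET 48 h cultures (left) and without replicate 3 (right). Red points passed an adjusted p of 0.05, 429 on the left and 2560 on the right.

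For the genes called without it, replicate 3 lay in different places relative to the 24 h cultures. Among the 1427 higher genes, replicate 3 lay above all HET 24 h cultures in 655 (45.9%), inside their range in 545 and below it in 227. Among the 1133 lower genes it lay below them all in 474 (41.8%), inside in 445 and above in 214. The same shares over all genes were not computed. These counts, and those of the lists below, therefore do not show in which genes replicate 3 moved. At the median gene it covered 16.6% of the rise and 15.3% of the fall seen in replicates 1 and 2. Genes called with all 3 cultures at 48 h and genes called only without replicate 3 are described below. Those named for the largest changes were picked among genes whose groups did not overlap, so their lack of overlap is no further support. They include Slc16a12, Rspo2, Mrgprx1, Chrna6, Sdr42e1, Qrfpr, Inhbb, Chst4, Avpr1a, Smpdl3b, Mki67, Ccna2, Col3a1 and Hist1h3c.

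Among the genes that rose with all cultures were Slc16a12, Syt1, Kcnab1 and Rspo2. Slc16a12, a solute carrier of the monocarboxylate transporter family, was at 86.7, 189 and 128 normalized counts at 24 h and 1094, 544 and 853 at 48 h. All 3 later cultures, replicate 3 included, lay far above the earlier ones (log2 change 2.63, SE 0.46, limma adjusted p 0.0198). The HET 12 h cultures had 1227, 2387 and 1304, so the 24 h cultures were the low ones of the 3 times. WT cultures stood at 177, 156 and 285 at 24 h and 209, 60.2 and 292 at 48 h and overlapped.

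Syt1, the calcium sensor of synaptic vesicle release, was at 5294, 6712 and 6805 normalized counts at 24 h and 14845, 13341 and 10947 at 48 h. Every 48 h culture was above every 24 h culture, with replicate 3 the lowest of them (log2 change 1.05, SE 0.20, adjusted p 0.0219). At 12 h the HET level had been 11955, 16792 and 14742, and WT had 6792, 7360.3 and 8764 at 24 h and 8748, 6167 and 10298 at 48 h. Kcnab1, a potassium channel beta subunit, was among the genes with the lowest adjusted p (0.0145) and was at 2828, 2677 and 2979 against 7599.5, 6081 and 5020.3. Its groups did not overlap (log2 change 1.12, SE 0.16), and it rose in WT too (log2 change 0.55, adjusted p 0.0210). Rspo2, a secreted amplifier of Wnt signalling, was at 507, 652 and 739 at 24 h and 3710.4, 2392 and 1439.9 at 48 h. It rose with a log2 change of 1.90 (SE 0.28, adjusted p 0.0145), with replicate 3 between the 24 h cultures and the other 48 h cultures, and in WT by 0.996 (adjusted p 0.0165).

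The genes that fell in all 3 HET cultures included several that did not pass in WT. In the fit without a replicate block, however, no gene passed the test of a difference between genotypes given below. Sdr42e1, a short-chain dehydrogenase/reductase, was at 959, 765 and 663 normalized counts at 24 h and 248, 251 and 280.4 at 48 h. The 3 later cultures were within a narrow range far below the earlier ones (log2 change -1.60, SE 0.23, limma adjusted p 0.0145). HET cultures at 12 h had 205, 149 and 173, and WT cultures had 497, 553 and 596 at 24 h and 559.8, 956 and 402 at 48 h (log2 change 0.13, adjusted p 0.699). Qrfpr, a neuropeptide receptor, was at 354, 124 and 220.0 and then 55.6, 58.8 and 56.9, and all 48 h cultures were below the 24 h range (log2 change -1.88, adjusted p 0.0446). Inhbb, the beta B subunit of activin and inhibin, was at 823, 389 and 619 and then 83.5, 220.5 and 165, again without overlap (-2.001, 0.0286). Chst4, a carbohydrate sulfotransferase, had the largest fall of the genes called with all cultures, from 226, 129.8 and 215 to 8.16, 34.9 and 54.8 (-2.82, 0.0198).

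Avpr1a, the vasopressin 1a receptor, was at 1099, 524 and 897 and 173, 274 and 373 normalized counts (log2 change -1.62, limma adjusted p 0.0277). Smpdl3b, a membrane-bound phosphodiesterase, was at 116, 94.7 and 105 and 21.6, 34.4 and 36.7 (-1.76, 0.0198). Sema6a, a transmembrane semaphorin, was at 20082, 11828 and 11790.0 and 5651, 6372 and 6359.6 (-1.20, 0.0391). In each of these genes every 48 h culture lay below every 24 h culture, which the choice of Avpr1a and Smpdl3b had required. Psmd11, a subunit of the proteasome lid, moved less but as evenly, from 3852, 3528 and 3497 to 2452, 2609 and 2589 (-0.51, 0.0267). The WT log2 changes of these 4 genes were -0.61, -0.30, -0.30 and -0.05 (adjusted p 0.188, 0.502, 0.460 and 0.740). Ankrd1, an ankyrin repeat protein, was at 146, 184 and 138 and 38.04, 62.04 and 10.7 (-2.35, 0.0446) and was the 1 gene called with all cultures that did not pass without replicate 3 (-1.65, 0.0524), its lowest culture.

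Genes of non-peptidergic nociceptors, the neurons of itch and skin pain, were split. Of the 20 measured, 3 rose with all cultures and 0 fell, with a median log2 change of 0.23 against 0.02 over all genes. Mrgprx1, a Mas-related itch receptor, was at 14.01, 54.3 and 56.5 normalized counts at 24 h and 335, 236 and 144 at 48 h. Replicate 3 was the lowest of the 3 later cultures and still above all earlier ones (log2 change 2.64, SE 0.51, limma adjusted p 0.0219). Lpar3, a lysophosphatidic acid receptor, was at 449, 743 and 675 and 1813, 1121 and 1694. Its groups did not overlap, and replicate 3 was near replicate 1 (log2 change 1.31, adjusted p 0.0379). The HET 12 h levels were 1832, 2810.3 and 2178, above all 24 h cultures.

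Other genes of the same list were lower in replicates 1 and 2 only. Without replicate 3, 5 of the 20 rose and 3 fell, with a median of 0.00 against 0.04 over all genes, and on the plain adjusted columns 2 rose and 3 fell. The 3 that fell were Il31ra, the receptor of the itch cytokine interleukin 31, and the Mas-related receptors Mrgprb4 and Mrgprb5. Il31ra was at 565, 758 and 555 at 24 h and 75.9, 151 and 673 at 48 h, with replicate 3 inside the 24 h range (log2 change -2.52, limma adjusted p 0.000287 without it, and -1.64, 0.0996 with it). Mrgprb5 was at 35.03, 78.7 and 54.7 and 7.17, 21.3 and 109, so that replicate 3 exceeded every 24 h culture. Mrgprd, the marker of the largest non-peptidergic class, was chosen after its values were seen, was at 1069, 2539.7 and 1516 and 618, 839 and 6163 and did not pass in either fit (adjusted p 0.948 and 0.153). In WT, 0 of the 20 rose and 9 fell, with a median of -0.74. Some Mrgpr genes are similar in sequence, so reads may be shared between them. How shared reads were counted is not given in the sources used here, so separate values may be uncertain.

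Peptidergic nociceptor genes, which mark heat-sensing and peptide-releasing neurons, passed once with all cultures (1 of 20 rose, 0 fell). That gene was Chrna6, a nicotinic receptor subunit, at 178, 429.6 and 399 and 2878, 1517 and 932, without overlap (log2 change 2.35, limma adjusted p 0.0260). Without replicate 3, 4 rose and 3 fell, where 8.3% of all genes rose and 6.59% fell. P2ry1, a purine receptor, was at 638, 998 and 814 and 2167, 1964 and 822 and rose in that fit (1.36, adjusted p 0.00112, and 0.92, 0.0984 with all cultures), with replicate 3 inside the 24 h range. In WT, 1 rose and 11 fell.

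Neuropeptide genes showed the same split between cultures. With all cultures 0 of 20 passed, at a median log2 change of -0.13. Without replicate 3, 4 fell: Calca and Calcb, which encode calcitonin gene-related peptides, Sst (somatostatin) and Nmb (neuromedin B). Sst was at 105, 153 and 171 normalized counts at 24 h and 35.3, 57.7 and 208 at 48 h. Replicates 1 and 2 were below the 24 h range and replicate 3 above it (log2 change -1.61, limma adjusted p 0.00821 without replicate 3, and -0.89, 0.330 with it). Nmb was at 2992, 3969 and 3432 and 2262, 2116 and 5002 with the same order. In all 4 genes replicate 3 exceeded every 24 h culture, as it did in 18.9% of all 1133 genes that fell without it. Calca and Calcb are similar in sequence, so reads may have been split between them. In WT, 7 of 20 rose and 5 fell.

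Some transcription factors of sensory neuron identity rose. With all cultures, 2 of 20 rose and 0 fell, with a median log2 change of 0.18, and without replicate 3, 6 rose and 1 fell. Prdm12, needed for nociceptors to form, was at 1863, 1716 and 1706 normalized counts at 24 h and 5737, 3430.4 and 2742 at 48 h. All 3 later cultures were higher (log2 change 1.10, SE 0.20, limma adjusted p 0.0198). Prrxl1, also called Drg11, was at 1613, 1821 and 2033 and 3608, 3268 and 2347, with no overlap (0.74, 0.0287). Isl1, a factor of all sensory neurons, was at 3272, 2613 and 3759.7 and 7338, 7984 and 3275. Replicates 1 and 2 were above all 24 h cultures and replicate 3 was inside their range, so Isl1 did not pass with it (0.86, 0.0603) and rose without it (1.27, 5.10e-05). Pou4f1 (Brn3a) was at 7206, 5889.8 and 6552 and 9868, 9178 and 6828 with the same order. Over the 8 general neuron markers, 0 passed with all cultures and 4 rose without replicate 3, and their summed level went from between 372570 and 402640 at 24 h to between 429080 and 438380 at 48 h.

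Genes of cell division and DNA copying rose and none fell. Of 40 measured, 5 rose with all cultures and 0 fell (median log2 change 0.85), 28 rose and 0 fell without replicate 3 (median 1.16), and 34 rose and 0 fell in WT (median 1.35). Mki67, which marks cycling cells, was at 155, 159.5 and 141 normalized counts at 24 h and 1225, 921 and 208 at 48 h. Replicates 1 and 2 were high, and replicate 3 was closer to the 24 h cultures, though above them (log2 change 2.02, SE 0.47, limma adjusted p 0.0361, and 2.80, 3.66e-05 without it). Ccna2 (cyclin A2) was at 26.7, 35.04 and 35.5 and 479, 245 and 52.97 in the same order (2.48, 0.0309). Top2a, the topoisomerase that untangles copied DNA, was at 78.4, 61.2 and 91.8 and 871, 459.9 and 105 and did not pass with replicate 3 (2.18, 0.0707) but rose without it (3.04, 0.00149). In the 28 genes, replicate 3 was above the 24 h range in 16, inside it in 6 and below it in 6 (45.9%, 38.2% and 15.9% of all 1427 genes that rose without it). At the median gene it covered 14.2% of the rise, against 16.6% over those 1427. The mean level of the list, set to 0 at 24 h, was 1.52, 1.07 and 0.11 (log2) in the 48 h cultures and 1.87, 1.60 and 1.24 in WT at 48 h. Markers of fibroblasts, which can divide, were also higher in replicates 1 and 2, with the values given below, and their part in this result was not tested.

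The replication-dependent histone genes, a list added after values had been seen, moved with them: of 54, 13 rose with all cultures and 0 fell, and 35 rose and 1 fell without replicate 3. Hist1h3c, a histone H3 gene, had the largest rise of the genes called with all cultures, from 14.04, 3.33 and 5.40 to 288, 114 and 28.4 normalized counts. All 3 later cultures exceeded the earlier ones, replicate 3 least (log2 change 3.73, SE 0.67, limma adjusted p 0.0198). These genes are near-identical copies, so their separate values are uncertain.

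Promoter sequence is shown for 3 cell cycle genes, because the TTTGAA letters known as the cell cycle homology region are a textbook feature of genes silenced outside division. The windows come from RefSeq on GRCm38.p6, the assembly that mm10 denotes, 5′ to 3′ on the strand of the gene and within the 250 bases before its start, and capitals mark TTTGAA. Mki67 is at chr7:135716380-135716515 (minus strand), Top2a at chr11:99024239-99024388 (minus) and Cdk1, the mitotic kinase, at chr10:69352913-69353012 (minus). Genes and motif were chosen with the results known, and the 3 genes were picked from those that hold the motif.
Mki67: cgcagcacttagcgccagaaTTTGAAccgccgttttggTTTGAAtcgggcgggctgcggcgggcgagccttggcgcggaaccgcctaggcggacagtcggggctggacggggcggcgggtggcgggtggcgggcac
Top2a: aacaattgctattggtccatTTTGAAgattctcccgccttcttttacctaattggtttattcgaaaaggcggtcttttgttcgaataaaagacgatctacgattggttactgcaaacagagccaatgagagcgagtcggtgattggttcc
Cdk1: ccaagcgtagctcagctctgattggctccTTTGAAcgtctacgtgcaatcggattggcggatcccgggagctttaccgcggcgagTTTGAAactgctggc
Both strands were searched in the 12599 genes with a promoter in the table. TTTGAA was present in 1647 (13.1%), in 7 of 33 cell cycle genes (21.2%) and in 7 of the 23 that rose without replicate 3 (30.4%). In the integrated stress response genes described below it was in 4 of 21 (19.0%) and in 4 of the 15 called without replicate 3 (26.7%). CCAAT, which lies beside it in many such promoters, was in 4981 of all genes (39.5%), 25 of the 33 (75.8%) and 13 of the 21 (61.9%), and the E2F-type letters TTTNNCGC in 922 (7.32%), 7 of the 33 (21.2%) and 1 of the 21 (4.76%). A match describes the letters only. Cdk1 was at 35.3, 27.6 and 48.8 at 24 h and 189, 121 and 40.01 at 48 h, with replicate 3 inside the 24 h range (log2 change 2.03, limma adjusted p 0.00185 without it, and 1.40, 0.0961 with it).

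**Figure D3:**
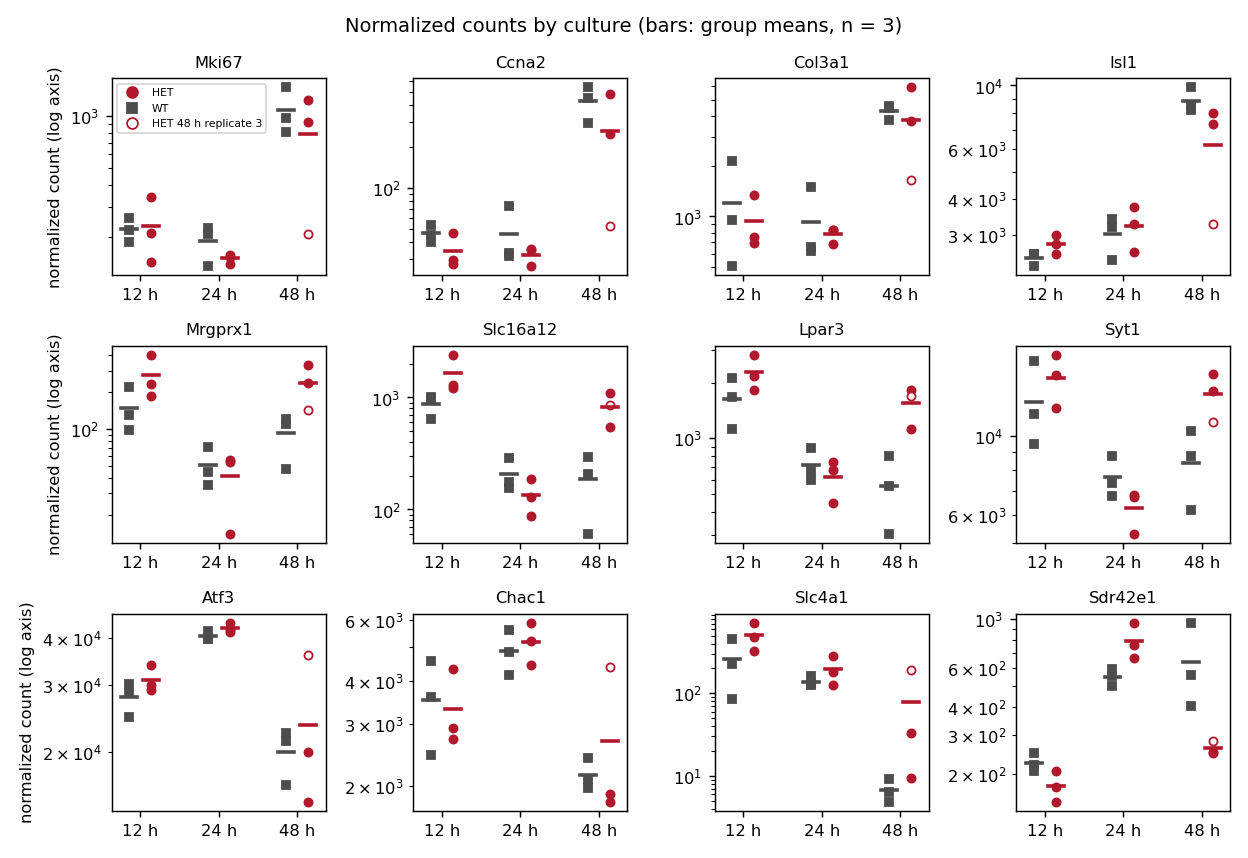
Normalized counts (vertical, log axis) of 12 genes in HET (red circles) and WT (grey squares) cultures at 12, 24 and 48 h, with HET 48 h replicate 3 as an open circle and bars at group means (n = 3). The open circle lies with the other HET 48 h cultures in Slc16a12, Lpar3 and Sdr42e1 and near the HET 24 h cultures in Mki67, Isl1, Chac1 and Slc4a1.

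Some genes of the connective tissue matrix rose. Of 16 fibroblast markers, 1 rose and 1 fell with all cultures (median log2 change 0.52), and 4 rose and 1 fell without replicate 3 (median 0.79). Col3a1, a fibrillar collagen, was at 828, 680.2 and 833 normalized counts at 24 h and 5918, 3728 and 1655 at 48 h. All 3 later cultures were higher, replicate 3 least (log2 change 2.09, SE 0.47, limma adjusted p 0.0338). Thbs2, a matrix thrombospondin, was at 398, 282 and 193 and 5605, 2538 and 295, with replicate 3 inside the 24 h range (adjusted p 0.0868 with it, and 3.75, 0.000506 without it). Pdgfra, a receptor of fibroblasts and their precursors, fell instead, from 1445, 1143 and 1077 to 489.6, 564 and 1003 (-0.89, 0.0487). In bulk cultures more cells of a type and more RNA per cell cannot be told apart, here or below. The summed level of the 16 markers was 36938 to 44191 at 24 h and 79448, 61758 and 42263 at 48 h, so that replicate 3 was not above the 24 h range, and none was at 0 in any culture. Over 43 collagen genes, 2 rose and 1 fell with all cultures, and 10 rose and 2 fell without replicate 3. Col11a1, a fibrillar collagen of cartilage, rose from 169, 332 and 223 to 1320.1, 821 and 374 (1.67, 0.0361), and Col6a5 fell from 388, 286 and 343 to 107, 103 and 216 (-1.33, 0.0239). Ccl11, the chemokine eotaxin, rose from 17.3, 24.6 and 18.7 to 401, 233 and 60.5 (3.10, 0.0239).

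Neutrophil and red cell genes had the lowest median of the 33 lists in both fits, and replicate 3 did not share their fall. Of 13 measured, 0 passed with all cultures (median log2 change -1.98) and 9 fell without replicate 3 (median -3.31), and 8 fell in WT (median -3.43). Ngp, a neutrophil granule protein, was at 214, 219.8 and 282 normalized counts at 24 h and 5.09, 6.09 and 262 at 48 h. Replicates 1 and 2 were far below the 24 h cultures and replicate 3 lay among them (log2 change -5.18, limma adjusted p 0.00773 without it, and -3.40, 0.175 with it). Slc4a1, the anion exchanger of red cells, was at 124, 182 and 282 and 9.27, 33.3 and 190.1, in the same order (-3.31, 0.00132, and -2.20, 0.113). The summed level of the 13 genes was 1563 to 4968 at 24 h and 180, 303 and 2630.0 at 48 h. Replicate 3 was below the 24 h range in 0 of the 9 genes, inside it in 8 and above it in 1 (41.8%, 39.3% and 18.9% of all 1133 genes that fell without it).

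Vessel and glial markers passed in the fit without replicate 3 alone, where 8.3% of all genes rose and 6.59% fell. Of 14 endothelial genes 0 passed with all cultures and 6 fell without replicate 3, Vwf (von Willebrand factor) from 1696, 2509 and 3184 to 1026, 1233 and 1698 and Cldn5, a tight junction protein, from 128, 237 and 241 to 56.8, 84.7 and 193. Replicate 3 was inside the 24 h range in all 6 of them (39.3% of all 1133 genes that fell without it). The 14 genes summed to 17710.0 to 27724 at 24 h and 16060.0, 13856 and 19099 at 48 h. Of 18 myelin and Schwann cell genes 0 passed with all cultures and 3 rose without replicate 3. Of 12 satellite glia genes 0 passed with all cultures and 1 fell without replicate 3, Ednrb, an endothelin receptor, at 2038, 3012 and 3459.8 and 861, 1776 and 1702. No macrophage gene passed in either fit (0 of 18), and their summed level was 3758 to 8146 at 24 h and 3922, 5420 and 4004 at 48 h. How far these cell types account for changes in other lists was not tested.

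**Figure D4:**
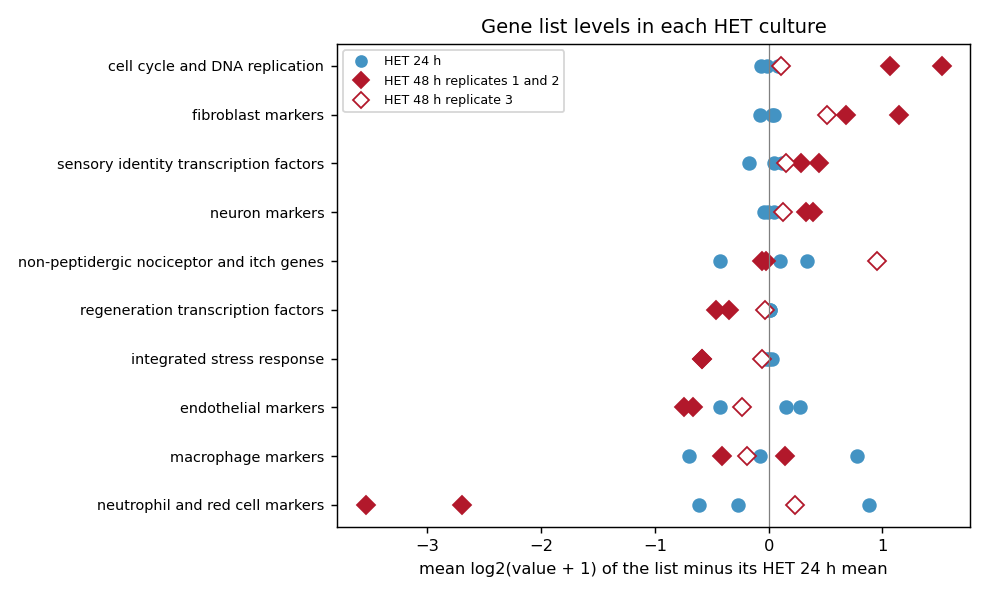
Mean log2(value + 1) of 10 gene lists in each HET culture, minus the list's HET 24 h mean (horizontal axis, log2). HET 48 h replicates 1 and 2 (filled diamonds) stand apart from the 24 h cultures in the cell cycle, stress response and blood cell lists, where replicate 3 (open diamond) lies at 0.11, -0.06 and 0.24.

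Genes of the integrated stress response fell. In this response Atf4 drives genes of amino acid import, tRNA charging and recovery of translation. Of 25 measured genes, 3 fell and 0 rose with all cultures (median log2 change -0.45), 17 fell and 1 rose without replicate 3 (median -0.63), and 13 fell and 3 rose in WT (median -0.48). The 3 that fell with all cultures were Gdf15, a stress hormone, Cars, the cysteinyl-tRNA synthetase, and Slc3a2, the heavy chain of amino acid transporters. Gdf15 was at 874, 1005 and 974 normalized counts at 24 h and 344, 511 and 509 at 48 h, all 3 later cultures below the earlier (log2 change -1.08, SE 0.22, limma adjusted p 0.0267). Cars was at 5437, 4968 and 5087 and 3136, 2994 and 4396, where replicate 3 was the highest of the later cultures and still below the 24 h range (-0.58, 0.0367). Slc3a2 was at 13015, 13237 and 13383 and 8126, 7657 and 12139, in the same order (-0.54, 0.0434).

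In the 17 stress genes that fell without replicate 3, replicate 3 covered 9.9% of the fall at the median gene, against 15.3% over all 1133 such genes. Chac1, a glutathione-degrading enzyme, was at 5872, 5222 and 4438 and 1889, 1796 and 4380.4 normalized counts, and replicate 3 lay just below the 24 h range (log2 change -1.48, limma adjusted p 0.000377 without it, and -1.06, 0.0528 with it). Ppp1r15a, which restarts translation, was at 13725, 14279 and 14033 and 5753, 6658 and 17376, with replicate 3 above the 24 h range (-1.18, 0.000104, and -0.68, 0.182). Atf4 was at 23810.0, 26613 and 27246 and 17922, 18265 and 27351 (-0.51, 0.00172, and -0.32, 0.186). Over the 17 genes that fell without it, replicate 3 was below the 24 h range in 6, inside in 6 and above in 5. Over all 1133 genes that fell without it, these places held 41.8%, 39.3% and 18.9%. The mean level of the list relative to 24 h was -0.58, -0.58 and -0.06 (log2) in the 3 cultures.

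Promoters of 3 stress response genes are shown for the element TGATGNAA, the CCAAT/enhancer-ATF response element that Atf4 and its partners are known to bind, in capitals on either strand. The source, build and direction are as above, and the genes were again chosen with results known, from those that hold the element. Chac1 is at chr2:119351029-119351178 (plus strand), Pck2, a mitochondrial carboxykinase, at chr14:55540143-55540265 (plus) and Slc7a11, the cystine importer, at chr3:50443614-50443713 (minus).
Chac1: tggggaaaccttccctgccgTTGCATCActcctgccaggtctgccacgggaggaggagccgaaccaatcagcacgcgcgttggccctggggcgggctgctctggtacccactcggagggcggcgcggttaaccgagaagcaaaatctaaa
Pck2: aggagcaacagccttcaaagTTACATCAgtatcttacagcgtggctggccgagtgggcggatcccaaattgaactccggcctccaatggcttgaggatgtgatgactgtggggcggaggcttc
Slc7a11: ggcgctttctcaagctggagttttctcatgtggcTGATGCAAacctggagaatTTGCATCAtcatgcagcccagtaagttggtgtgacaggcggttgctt
Among all 12599 promoters 323 held it (2.56%), against 4 of 21 stress response genes (19.0%), 3 of the 15 called without replicate 3 (20%) and 0 of 33 cell cycle genes. Pck2 was at 4510.5, 3906 and 4073 at 24 h and 3026, 2846 and 3826 at 48 h (log2 change -0.50, limma adjusted p 0.00830 without replicate 3, and -0.37, 0.0961 with it), and Slc7a11 at 1607, 4122 and 4134 and 1229, 1785 and 2301 (-1.02, 0.0303, and -0.81, 0.122). In both genes replicate 3 was the highest of the 48 h cultures.

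Several injury and regrowth factors fell. Of 19 regeneration transcription factors, 3 fell and 0 rose with all cultures (median log2 change -0.40), 8 fell and 1 rose without replicate 3 (median -0.49), and 12 fell and 0 rose in WT. Atf3, the classic marker of an injured sensory neuron, was at 41961, 41440.0 and 43725 normalized counts at 24 h and 14786, 19960.0 and 35909 at 48 h. All 3 later cultures were below the earlier ones, replicate 3 by the least (log2 change -0.95, SE 0.21, limma adjusted p 0.0321, and -1.30, 2.42e-05 without it). Fosl2, a partner of Jun, was at 9359, 8726 and 8607 and 5616, 6062 and 6928 and fell in all 3 (-0.53, 0.0198). Klf6 was at 16304, 18225 and 17622 and 9726, 12133 and 15927 (-0.49, 0.0496). Jun was at 19435, 18357 and 18454 and 14509, 14265 and 18534 and did not pass with all cultures (-0.26, 0.179) but fell without replicate 3 (-0.38, 0.0132), which lay inside the 24 h range.

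Over all genes, 1.08% fell and 1.42% rose with all cultures, and 6.59% fell and 8.3% rose without replicate 3. Among 30 regeneration effectors, 4 fell and 1 rose with all cultures, and 7 fell and 4 rose without replicate 3, whereas 10 rose and 6 fell in WT. The 4 were Gadd45a, a stress-induced growth arrest gene, Plaur, the urokinase receptor, Stmn4, a microtubule regulator, and Sema6a. Gadd45a was at 10076, 9564 and 9911 and 4041, 5069 and 9281 (log2 change -0.78, limma adjusted p 0.0487). Plaur was at 12716, 9802 and 10862 and 4144, 4333 and 9849.6 (-0.98, 0.0410), with replicate 3 within the range of the 24 h cultures. Stmn4 was at 4424, 3691 and 4780.3 and 2239.6, 2446 and 3359 (-0.69, 0.0382), all 3 below the 24 h range. The 1 that rose was Cacna2d1, a calcium channel subunit, at 12550.0, 12801 and 13894 and 23676, 25772 and 16366 (0.72, 0.0373). Sprr1a, a growth-promoting injury gene chosen after its values were seen, was at 4370.5, 1463 and 1959 and 1265, 1386 and 528 in HET and did not pass (-1.25, 0.280). In WT it went from 1134, 2159 and 1909 to 4306, 13347 and 3263 and rose (1.77, 0.0415), and the difference between genotypes did not pass (-3.03, adjusted p 0.180).

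Of 19 injury cytokine and gp130 genes, 0 passed with all cultures, and 2 rose and 2 fell without replicate 3. In that fit 8.3% of all genes rose and 6.59% fell, so counts this small say little about a list. Il11 (interleukin 11) was at 393, 281 and 359 and 1527, 865 and 327 normalized counts, with replicate 3 inside the 24 h range (log2 change 1.75, limma adjusted p 0.00470 without it, and 1.15, 0.158 with it). Osmr, the oncostatin M receptor, was at 5474, 5160.5 and 6084 and 3444, 3797 and 5009, all later cultures below the earlier (-0.62, 0.00164, and -0.46, 0.0570 with replicate 3). Of 16 immediate early genes 0 passed with all cultures and 2 fell without replicate 3, against 9 in WT. Arc, an activity-induced synaptic gene, was at 995, 1284 and 934 and 367, 375 and 1059.6 (-1.51, 0.00436 without replicate 3, and -1.01, 0.144 with it).

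Some ion channel genes rose. Calls over all genes were also more often higher than lower, 1.42% against 1.08% with all cultures and 8.3% against 6.59% without replicate 3. Of 37 voltage-gated sodium and calcium channel genes, 2 rose and 0 fell with all cultures, and 5 rose and 0 fell without replicate 3, while 4 rose and 9 fell in WT. Cacnb3, a calcium channel beta subunit, was at 9609, 9162 and 9519.9 and 15452, 14037 and 11827 normalized counts, without overlap (log2 change 0.54, limma adjusted p 0.0239). Cacna1h, a low-threshold calcium channel, was at 1216, 876 and 960.4 and 3493, 2966 and 895, with replicate 3 inside the 24 h range (1.67, 7.51e-06 without it, and 1.06, 0.0830 with it). Of 87 potassium channel genes, 4 rose and 0 fell with all cultures, 10 rose and 3 fell without replicate 3 (10 and 5 on the plain adjusted columns), and 8 rose and 22 fell in WT. The 4 were Kcnab1, Kcna6, Kcnf1 and Kcnh6. Kcna6 was at 3196, 3257 and 3498 and 5364, 4724 and 3974 (0.49, 0.0297), and Kcnf1 at 97.3, 83.9 and 115 and 476, 258 and 144 (1.40, 0.0309). Neither gene's groups overlapped.

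Among 24 synaptic vesicle genes, 1 rose (Syt1) and 1 fell with all cultures. The latter, Stx1a, a membrane fusion protein, was at 3985, 3168 and 3628 and 1798, 2009 and 2798 normalized counts, all later cultures lower (log2 change -0.73, limma adjusted p 0.0239). Among 35 axon guidance genes, 2 fell and 0 rose with all cultures, Sema6a and the ephrin receptor Epha5. Without replicate 3, 9 rose and 2 fell, where 8.3% of all genes rose and 6.59% fell. Epha5 was at 1335, 1106 and 1041 and 742, 818 and 863, with no overlap (-0.52, 0.0418). Nrp1, a semaphorin receptor, was at 4268, 4638 and 4691 and 9971, 10097 and 4035. Replicates 1 and 2 were above all 24 h cultures and replicate 3 below them (1.15, 8.12e-06 without it, and 0.71, 0.101 with it). Epha7 was at 358, 207 and 288 and 1280.0, 1009 and 219.5, again with replicate 3 at the 24 h level (2.03, 0.000104, and 1.24, 0.135).

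Of 29 genes of dynein and its partner dynactin 0 passed with all cultures, where 2.49% of all genes did. Without replicate 3, 2 fell (6.59% of all genes fell), Ndel1, a dynein regulator, and Dctn4, a dynactin subunit. Ndel1 was at 12716, 13091 and 12789 and 9735, 10102 and 12778 normalized counts, and replicate 3 was inside the 24 h range (log2 change -0.38, limma adjusted p 0.00478 without it, and -0.25, 0.143 with it). The median of the list was 0.00 with all cultures, and its sign was the opposite on the plain adjusted columns (-0.04). Of 29 tubulin and microtubule-associated genes, 1 fell (Stmn4) and 0 rose with all cultures, and 4 rose and 1 fell without replicate 3 (8.3% of all genes rose). Tuba1a was at 67791, 50298 and 71679 and 97794, 87710.0 and 64933 (0.57, 0.0129 without replicate 3, and 0.40, 0.157 with it), although its reads may be shared with near-identical tubulin genes.

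Housekeeping genes are given beside the shares of all genes. With all cultures 2.49% passed, 1.42% higher and 1.08% lower. Without replicate 3, 14.9% passed, 8.3% higher and 6.59% lower. Of 82 cytosolic ribosomal protein genes 0 passed with all cultures and 5 rose without replicate 3, while 36 rose and 0 fell in WT. Of 74 oxidative phosphorylation genes, 1 rose with all cultures and 9 without replicate 3, against 13 in WT. That gene was Ndufv3, of complex I, at 2424, 2946 and 2952 and 4606, 4236 and 3838 normalized counts (log2 change 0.61, limma adjusted p 0.0338). The log2 change was positive in 72 of the 74 in each fit, against 9176 and 9314 of all 17198 genes. Of 39 proteasome genes 1 passed with all cultures, Psmd11, and 9 rose in WT. Of 25 lysosomal genes, Ctsl (cathepsin L) rose, from 43434, 41860.0 and 49737 to 65619, 64506 and 55157 (0.46, 0.0389), and Cln3 fell, from 636, 639.7 and 694 to 446, 466 and 544 (-0.44, 0.0446). Of 30 sterol and fatty acid genes, Scd2, a fatty acid desaturase, rose from 16309, 23129 and 21182 to 45622, 30243 and 26489 (0.73, 0.0446). None of the 20 heat shock, 20 apoptosis, 42 integrin and laminin or 20 myelinated mechanoreceptor genes passed with all cultures (0 in each), and without replicate 3 the counts were 0 and 2, 1 and 3, 2 and 1, and 1 and 0, higher and lower in that order. Bbc3, a cell death gene that p53 induces, was at 2267, 1840.5 and 1861 and 919.6, 978 and 2112, with replicate 3 inside the 24 h range (-1.06, 0.000203 without it, and -0.68, 0.111 with it).

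**Figure D5:**
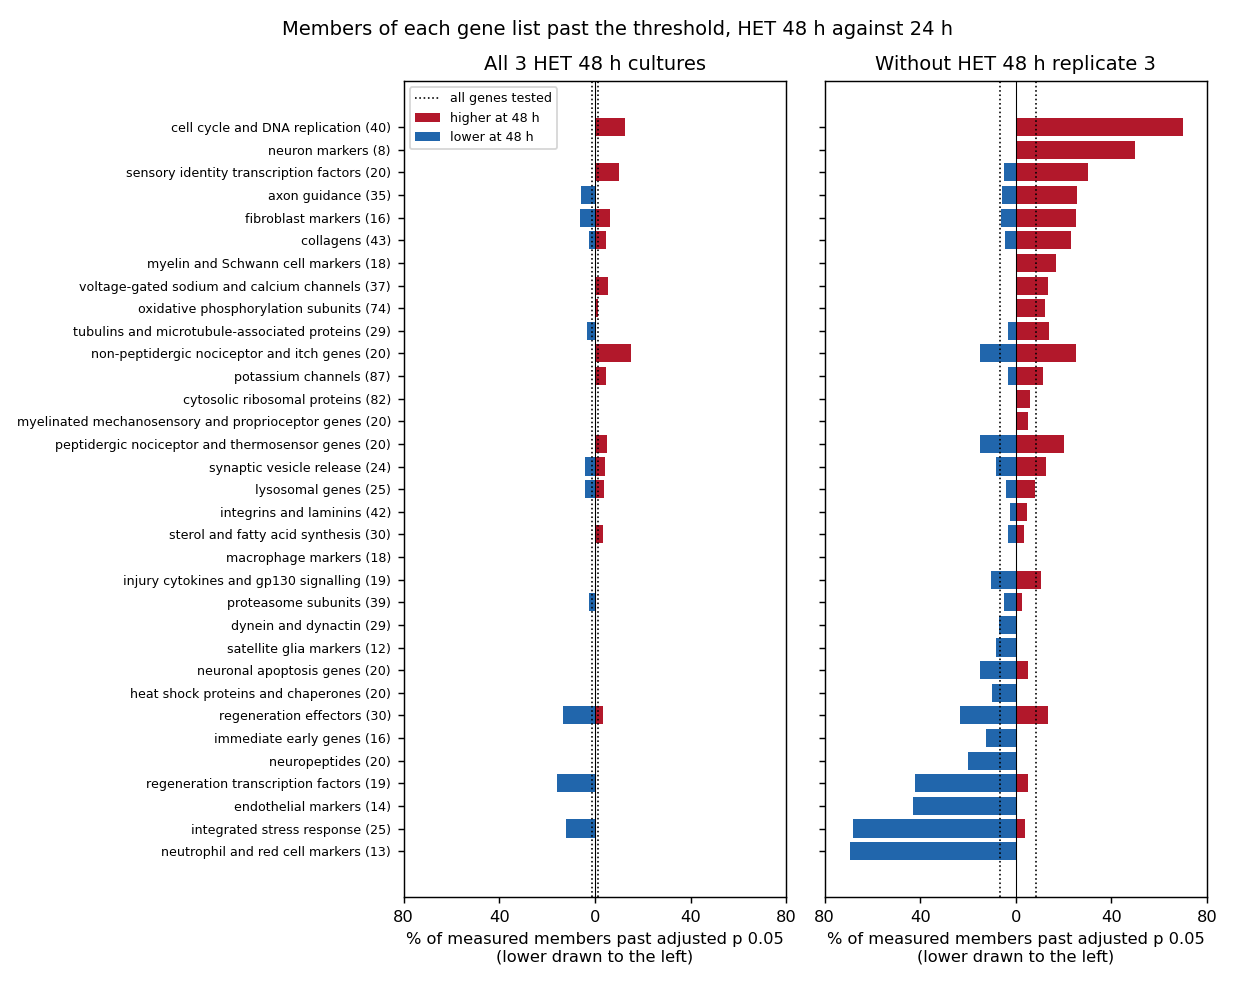
Share of each gene list (number of measured genes in parentheses) that passed an adjusted p of 0.05 from 24 to 48 h in HET, in percent, higher to the right and lower to the left, with all 3 HET 48 h cultures and without replicate 3. Dotted lines mark the shares over all genes, 1.42% and 1.08% on the left and 8.3% and 6.59% on the right. The cell cycle list has 28 of 40 genes higher without replicate 3, and the blood cell list 9 of 13 lower.

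Whether the 24 to 48 h change differed between genotypes was tested directly. No gene passed (0 of 17198, 0%; limma, lowest adjusted p 0.180), 2749 had an unadjusted p under 0.05 (16%), and of the 429 genes called in HET 108 did. Without HET 48 h replicate 3 the counts were 0 and 1793 (10.4%). With the replicate number as a block, an alternative given below, 465 genes passed (176 higher, 289 lower). The 0 therefore depends on leaving the number out of the fit. The 6 genes with the lowest p were Sdr42e1, Grpr, Jph4, Hsd3b7, Hspb1 and Deaf1, all with an adjusted p of 0.180. Sdr42e1 had a difference of -1.73 (SE 0.33), HET minus WT. Grpr, the gastrin-releasing peptide receptor, was at 24.6, 27.3 and 20.7 and 27.1, 32.4 and 44.1 normalized counts in HET and 36.1, 37.2 and 38.6 and 12.2, 13.5 and 8.46 in WT (2.13, SE 0.40). Jph4, a junctophilin of neurons, was at 1684, 2175 and 1652 and 2386, 2123 and 2425 in HET and 2084, 2613 and 2203 and 1469, 1138 and 1671 in WT (1.04, SE 0.20). Hspb1, a small heat shock protein of injured neurons, was at 9129, 7518 and 8615 and 6868, 6966 and 5750.1 in HET and 6922, 6963 and 7136 and 9942, 11246 and 9405 in WT (-0.91, SE 0.19). Slc16a12, Lpar3, Syt1 and Mrgprx1, which rose in HET and did not pass in WT, had differences of 2.99, 1.78, 0.94 and 1.83 (adjusted p 0.180, 0.180, 0.180 and 0.237), so a change in HET alone was not shown for any of them in this fit. Mki67 and Atf3, called in both genotypes, had differences of -0.46 (SE 0.66) and 0.07 (SE 0.30).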

How the data were processed

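Total RNA of mouse DRG neuron cultures was sequenced, with groups and replicates named as in the titles of the samples. Per the submitters' processing notes, CASAVA 1.8.2, edgeR and the build mm10 were used; the aligner and the counting are not given in the sources used here. The deposited table held 17198 genes (16529 with an Ensembl ID). The values tested were the authors' normalized counts, a signal per the file headers, with totals of 41509705 to 41509874 per culture and no whole numbers, so a count test could not be used and the fallback of the design, limma 3.58.1 (R 4.3.3), was. The authors' deposited plain adjusted columns, a second signal, served as an alternative, and the authors' FPKM values were used only to compare genes per length. The authors' log2 fold changes, p-values and the rank, a score, hold no HET 48 against 24 h comparison and were not used.

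Values were transformed to log2(value + 1), which understates changes of low genes. A minimum mean of 1 removed 0 genes. The model had 1 coefficient for each of 6 groups over 18 cultures, with eBayes and a trend (12 residual and 4.97 prior degrees of freedom; 11 and 5.24 without HET 48 h replicate 3, where the remaining cultures are assumed to vary like the other groups), Benjamini-Hochberg adjustment over all genes and a threshold of 0.05. The logs of the plain adjusted columns spanned 15 of 17 possible dimensions, so 2 directions had been removed from them. If the same holds for the normalized counts tested, the residual degrees of freedom are overstated. The fit was tested on simulated data with independent spread and equal changes in all 3 HET 48 h cultures. That setting held no outlying culture and no removed directions, so it does not show how the fit behaves with them. Samples, the 33 gene lists (7 listed genes were not found) and the comparisons were chosen with earlier results of these data known. Named genes were Dynlrb1, up to 12 per direction and fit with the largest called change, a mean of at least 50 and no overlap, up to 4 per list and fit with the lowest p, 6 for the genotype difference and the marker genes. Atf4, Cdk1, Jun, Mrgprd, Pck2, Slc7a11 and Sprr1a were added after their values were seen, and some genes that the rule names are not reported here. Figures and promoter searches used Python 3.11.15, pandas 2.3.3 and matplotlib 3.10.9. Alternatives were other pseudocounts, minimum means, columns, quantile normalization, the replicate number as a block, the missing directions as covariates, a fit to 4 groups and each culture left out.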

Additional observations from a re-analysis of the deposited data

How the results depend on the processing

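A pair of features limits these results: 1 of the 3 HET 48 h cultures lay near earlier times, and the depth of the libraries is unknown. Where a count changed, the cause was not tested. A count test was not run, because the values are not counts, and leaving out the filter changed nothing, because it had removed 0 genes. Pseudocounts of 0.1 and 10, a minimum mean of 50, the plain adjusted columns and quantile normalization kept all 4 counts of calls within 1.5 times (431, 422, 501, 508 and 504 genes in HET in that order).

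With the replicate number as a block, HET gave 2084 genes with all cultures, and the difference between genotypes 465 (176 higher, 289 lower); the other counts stayed within 1.5 times. The labels do not say what a number marks. Deviations of same-numbered cultures from their group means correlated at 0.295 and -0.0161 between the HET times, which share numbers 1 and 2 only. Between genotypes they correlated at 0.321, 0.209 and 0.461 at 48 h and 0.109, -0.207 and 0.258 at 24 h, and 4 of 6 HET cultures correlated best with their own number. Not every pair exceeded 0.1, so the block is an alternative here, and a shared source of same-numbered cultures cannot be told from these values. With the missing directions as covariates HET gave 841 genes, and 1628 without replicate 3. With the block and the missing directions together (added once the data had been seen), HET gave 2139 and the difference 323. Fitted to the 4 groups of 24 and 48 h, HET gave 0 (3159 at an unadjusted p under 0.05).

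Leaving out 1 culture at a time, the HET count ran from 0 to 2560, that without replicate 3 from 570 to 2208, that in WT from 2236 to 4485 and that of the difference from 0 to 1, the 1 arising without WT 48 h replicate 3. The WT count was 2236 without WT 24 h replicate 2, 3134 without WT 48 h replicate 1 and 2297 without WT 48 h replicate 2. The shift on the WT line ran from 0.282 to 0.388 with 1 WT culture left out (exact permutation p 0.4 each) and from 0.148 to 0.602 with 1 HET culture left out, added once the data had been seen (p 0.1 to 0.7). Of 3279 refits of 212 changes of named genes, 2654 kept their direction and side of the threshold, 609 no longer passed, 12 newly passed and 4 turned. All 4 were Dynlrb1, which passed in none of its refits. With 1 culture left out at a time its log2 change ran from -0.036 to 0.209 with all cultures and from -0.013 to 0.231 without replicate 3. It turned in these 4: with all cultures -0.036 without HET 24 h replicate 1, and without replicate 3 -0.013 without HET 24 h replicate 1, -0.019 with the missing directions and -0.089 with the block and the missing directions.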

Other observations

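Outside the lists and the naming rule, the genes below were chosen after their values were seen. Insm2, a zinc finger factor, had the lowest p with all HET cultures, at 956, 877 and 989 normalized counts at 24 h and 2109, 1716 and 1592 at 48 h (log2 change 0.93, SE 0.13, limma adjusted p 0.0145). Its 3 later cultures were all higher, replicate 3 included. Zmym3, a zinc finger protein of chromatin, fell in all 3, from 8679.7, 6854 and 7386 to 3171, 4048 and 4255 (-1.002, 0.0174).

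Without HET 48 h replicate 3, Lrrn1, a leucine-rich repeat membrane protein, and Id4, an inhibitor of helix-loop-helix factors, had the lowest p. Lrrn1 was at 3064, 3556 and 3700.0 and 24054, 17199 and 3823 normalized counts, with replicate 3 just above the 24 h cultures (log2 change 2.57, limma adjusted p 2.17e-06 without it, and 1.76, 0.0385 with it). Id4 was at 725, 707 and 774 and 2852, 2673 and 849, in the same order (1.91, 2.17e-06, and 1.34, 0.0338). Ndrg1, a stress-responsive gene also induced by low oxygen, was at 16648, 14612 and 16249 and 3300.2, 4394 and 16138. Replicates 1 and 2 were low and replicate 3 was inside the 24 h range (-2.05, 6.36e-06 without it, and -1.36, 0.0570 with it).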
